A study of Mus musculus with 5 samples.

Results

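The 43 genes described here encode proteins that build ribosomes, subunits of RNA polymerase I, and 3 enzymes of polyamine and pyrimidine synthesis, and they were chosen by name from the 34240 features of the deposited table. All 43 names were found, and all 43 passed the filter on low values. The study sorted leukaemia cells and normal myeloid cells from BALB/c mice, given as 10 to 12 months old, and sequenced their RNA. The leukaemia group was 2 libraries of acute myeloid leukaemia (AML) cells positive for Mac, Gr1 and B220, with bone marrow and spleen as the tissue and with leukaemia induced by CNTRL-FGFR1, which joins the centrosomal protein centriolin to the receptor tyrosine kinase FGFR1. The other group was 3 libraries of Gr1+Mac1+ myeloid cells from normal bone marrow. Tissue and the B220 gate differed along with leukaemia, so their parts cannot be told apart. Whether each library is a different animal is not stated in the labels, and p-values here reflect only library-to-library spread, which may be technical.

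Ribosomes are assembled in the nucleolus, where RNA polymerase I transcribes a long precursor of ribosomal RNA. Small nucleolar ribonucleoproteins (snoRNPs) guide the chemical modification of that precursor, large assemblies cut and fold it around ribosomal proteins, and the small and large subunits then leave the nucleus along separate routes. MYC, a growth-promoting transcription factor, is known to activate many of these genes, and granulocytes are known to lose nucleolar activity as they mature.

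Values were read as RPKM, in which read numbers are divided by exon length and by library size, so levels of different genes can be set side by side. Column totals lay between 524000 and 638584 RPKM in the AML libraries and between 472234 and 615921 RPKM in the normal libraries. Counts were not given. The spacing of low values fitted depths near 107500000 and 105000000 reads in AML libraries 1 and 2, against 33250000, 76500000 and 101250000 reads in normal libraries 1, 2 and 3. At these depths 67.6% and 64.6% of the low values examined came out whole within rounding in AML cells (41.9% and 41.6% by chance), against 71.4%, 66.2% and 68.1% in normal cells (29.3%, 35.1% and 41.1% by chance). Each depth was the best fitting of many that were tried, and the shares by chance do not allow for that choice. The values examined numbered 37 and 48 in AML libraries 1 and 2, against 196, 74 and 47 in normal libraries 1, 2 and 3. Many values did not come out whole in any library, so depth is uncertain throughout. At the fitted depths of normal libraries 1 and 2 the fewest reads behind any of the 43 genes would be about 120 and 294, both for Rrp9. Cells of both groups carried neutrophil granule transcripts, with Ngp at 41385 and 23680 RPKM in AML cells, against 36431, 39027 and 38636 RPKM in normal cells. Of 10 late neutrophil genes, Ngp among them, 8 were called lower in AML cells by limma, against 11.8% of all tested genes. Ngp itself was not called.

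Of the 43 genes, 26 were higher in AML cells (60.5%), none was lower and 17 were not called (limma, Benjamini-Hochberg adjusted p under 0.05 across all tested genes). At an unadjusted limma p under 0.05, 31 were higher and 1, Polr1a, was lower. The share of all tested genes at that looser threshold was not determined, so these 2 counts have no background here. At adjusted p under 0.05, 19.3% of all 10166 tested genes were called higher and 11.8% lower. The median log2 fold change, taken on the log2(RPKM + 1) scale, which understates changes of low genes, was 0.91 for the 43 genes and 0.12 for all tested genes. Both AML libraries lay above every normal library for 33 of the 43 genes and below every normal library for 1, Polr1a. Over all tested genes those shares were 34.8% and 22.1%. The 26 higher genes had ratios of mean RPKM between 1.75 and 4.35 and adjusted p-values between 0.0029 and 0.046. In 4 of the 43 genes (Polr1b, Rrp12, Utp20 and Cad) fewer than 2 normal libraries reached 1 RPKM, so these passed the filter only with the AML libraries. The 43 genes together held 0.116% and 0.0967% of the RPKM total in AML cells, against 0.0629%, 0.0692% and 0.0515% in normal cells.

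**Figure D1:**
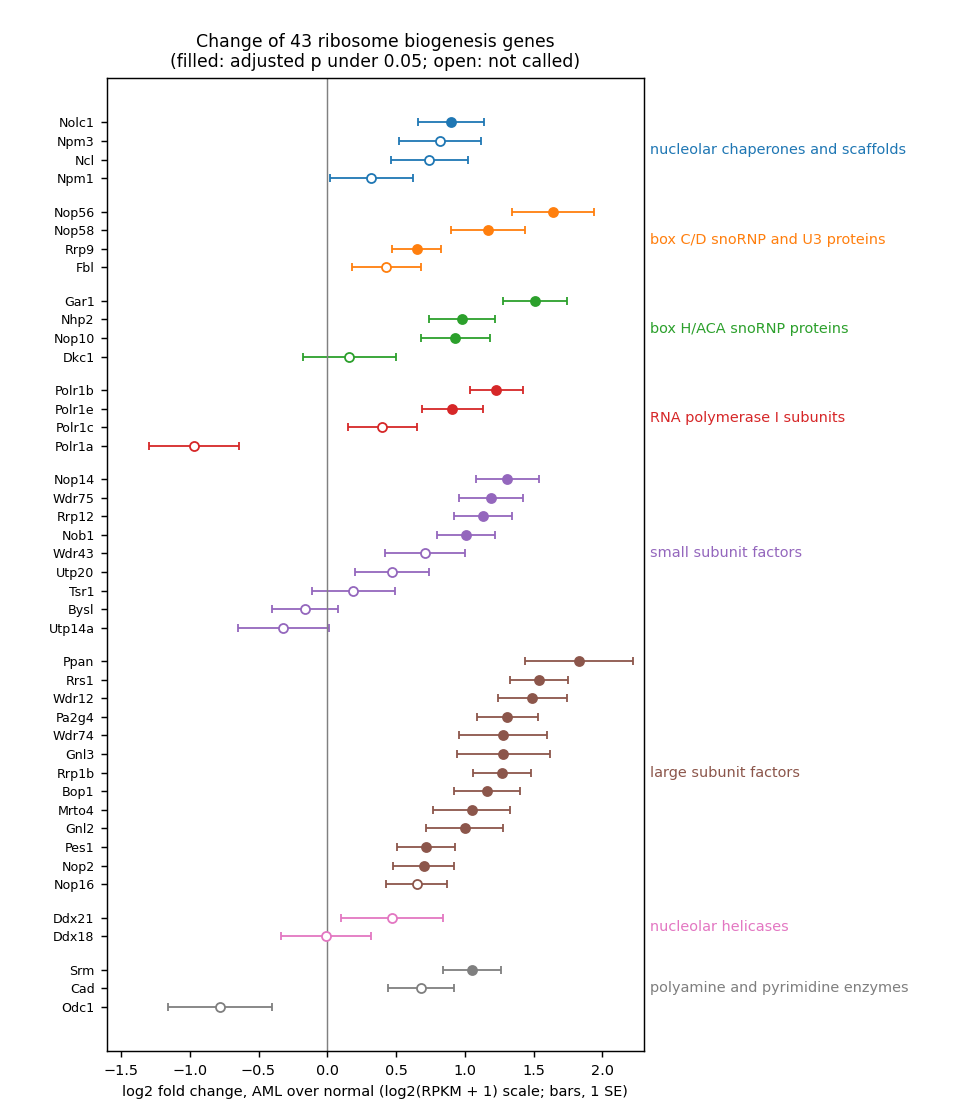
Log2 fold change (AML over normal, horizontal axis) of each of the 43 genes, grouped by role, with bars of 1 SE from limma over 2 AML and 3 normal libraries. Filled points are the 26 genes with adjusted p under 0.05, and open points the 17 genes that were not called. The 5 points left of 0 are Polr1a, Odc1, Utp14a, Bysl and Ddx18.

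The number of genes called depended on which libraries were in the fit. It was 11 without AML library 1, 4 without AML library 2, 13 without normal library 1, 13 without normal library 2 and 28 without normal library 3. The same fits called 7.08%, 3.33%, 11.4%, 9.61% and 27.3% of all tested genes higher, and the median of the 43 genes stayed between 0.83 and 0.96. Rrs1 and Rrp1b were called in all 5 of these fits. Another 9 genes lost their call in 1 fit, which was the one without AML library 1 for Rrp12 and Wdr12 and the one without AML library 2 for Nop56, Gar1, Polr1b, Wdr75, Nop14, Ppan and Pa2g4. Another 6 lost it in 3 fits (Nop58, Bop1, Wdr74, Gnl2, Gnl3 and Srm), and 9 lost it in 4, all but the one without normal library 3. The fit without normal library 3 also called Nop16 and Npm3 higher. Where 1 AML library was left, it was assumed to vary like the normal ones.

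The deposited scale gave 1959 higher and 1196 lower genes, so 62.1% of calls were higher, whereas upper quartile scaling gave 1128 and 1687 (40.1% higher), with 14 of the 43 genes higher. Median ratio scaling gave 1452 and 1534 (48.6%), with 19 of the 43 higher, and quantile normalization 1699 and 1432 (54.3%), with 22 higher. All of these 14, 19 and 22 genes were among the 26, and the same scalings called 11.1%, 14.3% and 16.7% of all tested genes higher. The median of all genes was -0.15, -0.02 and 0.04 under these scalings, and the median of the 43 genes exceeded it by 0.79 under each and on the deposited scale. Upper quartile and median ratio scaling divide each library by a constant, which moves nearly all genes alike. That excess could therefore hardly change under them, and its constancy is no separate result.

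The promoters of 4 genes are shown because they contrast Polr1a, whose level was lower in both AML libraries without passing the test, with Polr1b, which rose, and because Ppan and Nop56 had the highest log2 fold changes of all 43. Each stretch covers the 250 bases before the RefSeq start site on GRCm38.p6, written 5′ to 3′ on the gene's strand. Capitals mark GC boxes (GGGCGG), ETS motifs (CCGGAAG) and E-boxes (CACGTG) on either strand.
Polr1a (chr6:71908803-71909052, plus strand): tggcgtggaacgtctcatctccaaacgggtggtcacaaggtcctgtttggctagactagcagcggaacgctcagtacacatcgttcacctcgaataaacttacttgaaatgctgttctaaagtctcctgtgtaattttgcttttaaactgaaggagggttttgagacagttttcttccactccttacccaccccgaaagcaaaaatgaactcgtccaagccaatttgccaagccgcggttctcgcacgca
Polr1b (chr2:129100746-129100995, plus strand): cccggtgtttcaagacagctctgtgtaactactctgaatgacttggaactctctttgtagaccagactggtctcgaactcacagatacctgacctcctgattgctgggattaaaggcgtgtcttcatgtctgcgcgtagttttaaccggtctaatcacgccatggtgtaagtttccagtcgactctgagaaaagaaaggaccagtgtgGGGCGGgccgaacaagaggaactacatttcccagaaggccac
Nop56 (chr2:130274162-130274411, plus strand): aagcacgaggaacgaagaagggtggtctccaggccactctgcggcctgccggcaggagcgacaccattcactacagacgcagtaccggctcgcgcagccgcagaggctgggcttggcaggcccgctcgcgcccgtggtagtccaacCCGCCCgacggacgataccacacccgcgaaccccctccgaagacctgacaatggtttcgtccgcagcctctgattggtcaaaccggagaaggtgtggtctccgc
Ppan (chr9:20887925-20888174, plus strand): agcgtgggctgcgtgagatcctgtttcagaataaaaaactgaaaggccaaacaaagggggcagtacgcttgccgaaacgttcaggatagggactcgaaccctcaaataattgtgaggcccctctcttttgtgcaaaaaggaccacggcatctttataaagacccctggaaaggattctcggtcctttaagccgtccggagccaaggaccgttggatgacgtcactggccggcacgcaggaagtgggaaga
The stretches of Polr1b and Nop56 hold 1 GC box each, and those of Polr1a and Ppan hold none of the 3 motifs.

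The E-box CACGTG, the motif to which MYC with its partner MAX is known to bind, occurred in the promoters of 5 of the 36 genes with a RefSeq promoter entry (13.9%), in windows of 250 bases before to 50 bases after the start. It occurred in 12.1% of the 7241 tested genes with an entry and in 7.15% of all 32851 promoters. The 5 matches are shown with their flanking bases, the E-box in capitals, since they are the only such letters in these windows.
Nop2 (chr6:125131813-125131838, plus strand): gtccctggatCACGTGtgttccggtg
Pes1 (chr11:3963967-3963992, plus strand): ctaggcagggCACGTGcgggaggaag
Wdr43 (chr17:71616222-71616247, plus strand): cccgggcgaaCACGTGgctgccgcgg
Tsr1 (chr11:74898094-74898119, plus strand): acttggtgcaCACGTGgactgcagaa
Utp20 (chr10:88826765-88826787, minus strand): gcactaactaCACGTGaggaaaa
Of these 5 genes Nop2 and Pes1 were called higher, and Wdr43, Tsr1 and Utp20 were not called. GC boxes were found for 27 of the 36 genes (75%), against 69.6% of tested genes and 35.7% of all promoters. ETS motifs were found for 9 (25%), against 22.1% of tested genes and 8.86% of all promoters. The genes without an entry were Npm1, Fbl, Rrp12, Bop1, Rrs1, Gnl2 and Srm. E-boxes outside these windows were not searched.

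RNA polymerase I subunits differed among themselves, with Polr1b and Polr1e called higher and Polr1a and Polr1c not called. Polr1b, the second largest subunit (chromosome 2, 128926731 to 128952330, mm9), stood at 3.62 and 3.54 RPKM in AML cells, against 0.94, 0.75 and 1.18 RPKM in normal cells. Its mean was 3.74-fold higher (log2 fold change 1.23, SE 0.19, limma adjusted p = 0.0049), and the groups did not overlap. Polr1e, a subunit of the dissociable heterodimer that aids initiation, stood at 5.07 and 4.89 RPKM in AML cells, against 1.68, 2.42 and 2.52 RPKM in normal cells, with a log2 fold change of 0.91 (SE 0.22, adjusted p = 0.021).

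Polr1a, the largest and catalytic subunit (chromosome 6, 71859047 to 71929350, mm9), had the lowest change of the 43 genes. It stood at 4.6 and 4.2 RPKM in AML cells, against 13.4, 10.5 and 6.1 RPKM in normal cells. The groups did not overlap, and normal library 3 was the nearest to the AML libraries. The log2 fold change of -0.97 (SE 0.33) missed the threshold (limma adjusted p = 0.063), but passed under upper quartile scaling (-1.22, adjusted p = 0.037), median ratio scaling (-1.10, 0.04) and quantile normalization (-1.08, 0.035), and without normal library 3 (-1.25, 0.004). Over all alternatives its adjusted p ranged up to 0.26, without AML library 2. Polr1c, a subunit shared with RNA polymerase III, was at 8.79 and 7.8 RPKM in AML cells, against 4.97, 5.59 and 7.76 RPKM in normal cells (log2 fold change 0.40, SE 0.25, adjusted p = 0.25). The ratio of Polr1b to Polr1a in RPKM was 0.787 and 0.843 in AML cells, against 0.0701, 0.0714 and 0.193 in normal cells, so the transcripts of the subunits that form the active centre were nearer to equal in both AML libraries. An unequal ratio of transcripts does not show which of them changed.

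**Figure D2:**
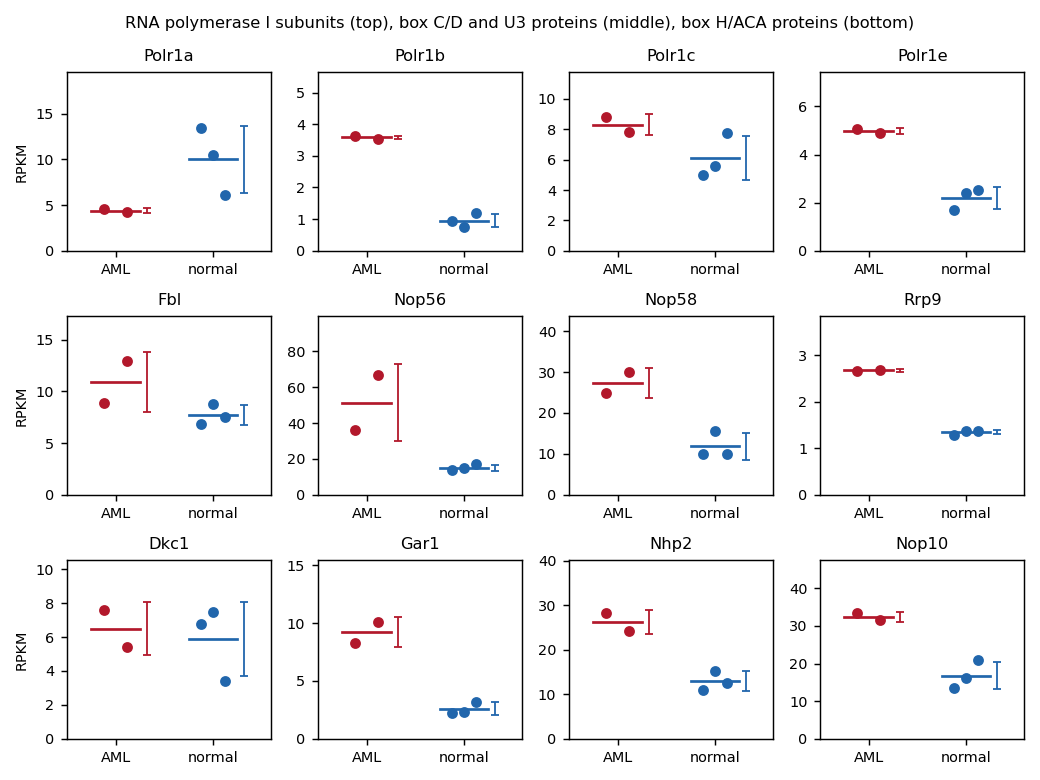
RPKM (vertical axes, from 0) of RNA polymerase I subunits (top row), box C/D and U3 proteins (middle) and box H/ACA proteins (bottom) in 2 AML and 3 normal libraries. Points are libraries, lines are group means and bars are 1 SD. Polr1a lies lower and Polr1b higher in both AML libraries, while the groups overlap for Dkc1.

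Box C/D snoRNPs carry out 2′-O-methylation of ribosomal RNA. In this group 3 of the 4 proteins were called higher, against 19.3% of all tested genes. Nop56, a core scaffold protein (chromosome 2, 130100166 to 130105049, mm9), stood at 36.07 and 66.5 RPKM in AML cells, against 13.66, 14.79 and 16.95 RPKM in normal cells. It was 3.39-fold higher (log2 fold change 1.64, SE 0.30, limma adjusted p = 0.0087), with a wide gap between the AML libraries. Its paralogue Nop58 stood at 24.83 and 29.96 RPKM in AML cells, against 10.03, 15.56 and 9.92 RPKM in normal cells, 2.31-fold higher (adjusted p = 0.018). Rrp9, which binds U3, the snoRNA of early cleavage, was at 2.65 and 2.69 RPKM in AML cells, against 1.29, 1.38 and 1.36 RPKM in normal cells (log2 fold change 0.65, SE 0.18, adjusted p = 0.034).

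Fbl, fibrillarin, the methyltransferase of these particles, was not called. It was at 8.84 and 12.93 RPKM in AML cells, against 6.84, 8.76 and 7.54 RPKM in normal cells, groups that AML library 1 barely kept apart (log2 fold change 0.43, SE 0.25, limma adjusted p = 0.22). The ratio of Nop56 to Fbl was 4.08 and 5.14 in AML cells, against 2.0, 1.69 and 2.25 in normal cells. That of Nop56 to Nop58 was 1.45 and 2.22 in AML cells, against 1.36, 0.951 and 1.71 in normal cells, and overlapped.

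Box H/ACA snoRNPs convert uridine to pseudouridine, and again 3 of 4 proteins were called higher, against 19.3% of all tested genes. Gar1 (chromosome 3, 129527830 to 129534314, mm9) stood at 8.32 and 10.14 RPKM in AML cells, against 2.24, 2.32 and 3.22 RPKM in normal cells, 3.56-fold higher (log2 fold change 1.51, SE 0.23, limma adjusted p = 0.0045). Nhp2 stood at 28.16 and 24.23 RPKM in AML cells, against 10.94, 15.31 and 12.46 RPKM in normal cells (log2 fold change 0.98, SE 0.24, adjusted p = 0.021). Nop10, the smallest core protein, rose by a similar amount, at 32.4 ± 1.34 RPKM in AML cells (SD, n = 2) and 16.8 ± 3.69 RPKM in normal cells (SD, n = 3), with adjusted p = 0.031.

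Dkc1, dyskerin, the pseudouridine synthase of the same particle, was not called. It was at 7.6 and 5.4 RPKM in AML cells, against 6.8, 7.5 and 3.4 RPKM in normal cells, and the groups overlapped (log2 fold change 0.16, SE 0.34, limma adjusted p = 0.74; -0.10 under upper quartile scaling). The ratio of Gar1 to Dkc1 was 1.09 and 1.88 in AML cells, against 0.329, 0.309 and 0.947 in normal cells. That of Nop10 to Dkc1 was 4.39 and 5.82 in AML cells, against 1.99, 2.14 and 6.12 in normal cells, with normal library 3 the highest of all. Dkc1 overlaps Mpp1 on the opposite strand, and the kit named in the labels was not stated to keep strand. Reads from bases that the exons of such a pair share could therefore not be told apart. Overlap was taken between whole gene spans, and whether exons overlap was not determined. Among the 43 genes 12 overlap a coding gene of the opposite strand in GENCODE M1, and none overlaps one of its own strand. Dkc1, Bysl and Tsr1 among the 12 were not called. The others were called higher: Nop56 (with Idh3b), Rrp9, Nhp2, Polr1e, Pes1, Bop1, Wdr12, Gnl2 and Gnl3.

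Of 13 factors of the large subunit 12 were called higher, against 19.3% of all tested genes, and both AML libraries lay above every normal library for all 13. With upper quartile scaling 6 of the 13 were called, with no filter 6, with median ratio scaling 7 and with quantile normalization 8. These fits called 11.1%, 10.2%, 14.3% and 16.7% of all tested genes higher. The number called was 3 without AML library 2, and 6 each without AML library 1, normal library 1 or normal library 2. Ppan, a factor of early large subunit assembly (chromosome 9, 20692619 to 20696622, mm9), had the highest fold change of the 43 genes. It stood at 10.74 and 22.92 RPKM in AML cells, against 2.53, 3.52 and 5.56 RPKM in normal cells, 4.35-fold higher (log2 fold change 1.83, SE 0.39, limma adjusted p = 0.014). AML library 2 carried more than AML library 1, as for Nop56.

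Rrs1, which helps to bring the 5S particle into the large subunit (chromosome 1, 9535489 to 9537535, mm9), stood at 9.38 and 9.03 RPKM in AML cells, against 2.21, 2.87 and 2.48 RPKM in normal cells. Libraries within each group were close, and its adjusted p of 0.0029 (log2 fold change 1.54, SE 0.21, limma) was the lowest of the 43. Rrp1b, a nucleolar protein related to yeast Rrp1 (chromosome 17, 32173045 to 32199810, mm9), was at 9.36 and 8.03 RPKM in AML cells, against 2.87, 3.22 and 2.91 RPKM in normal cells, 2.90-fold higher (adjusted p = 0.0057). Without any single library the adjusted p stayed at or below 0.033 for Rrs1 and 0.046 for Rrp1b.

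Pes1, Bop1 and Wdr12 form the PeBoW complex, needed to process the large subunit RNAs, and all 3 were called. Wdr12 was at 6.93 and 5.03 RPKM in AML cells, against 1.29, 2.06 and 1.13 RPKM in normal cells (log2 fold change 1.49, SE 0.25, limma adjusted p = 0.0063). Bop1 was 2.46-fold and Pes1 1.75-fold higher, and the ratio of Wdr12 to Pes1 was 0.633 and 0.455 in AML cells, against 0.222, 0.308 and 0.177 in normal cells. Pa2g4, also called EBP1, a growth-regulated protein of nucleolar preribosomes and ribosomes, had the highest mean in AML cells of the 26 called genes, at 62.98 and 63.05 RPKM in AML cells, against 23.65, 27.51 and 23.48 RPKM in normal cells.

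Of the other large subunit genes, the GTPases Gnl3 (nucleostemin) and Gnl2 were 2.65-fold and 2.12-fold higher, Wdr74 was 2.69-fold, Mrto4, which is replaced by the ribosomal stalk protein, 2.2-fold and the RNA methyltransferase Nop2 1.76-fold. Gnl3 was at 10.08 and 12.82 RPKM in AML cells, against 2.41, 6.07 and 4.46 RPKM in normal cells, with normal library 1 low. Nop16 was the only one of the 13 not called, at 5.51 and 3.84 RPKM in AML cells, against 2.51, 2.42 and 2.79 RPKM in normal cells (log2 fold change 0.65, SE 0.22, limma adjusted p = 0.064).

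Factors of the small subunit were mixed: 4 of 9 were called higher, against 19.3% of all tested genes, and 5 were not called. Nop14, of the small subunit processome (chromosome 5, 34981181 to 35002797, mm9), stood at 10.08 and 10.66 RPKM in AML cells, against 3.46, 4.32 and 3.04 RPKM in normal cells (log2 fold change 1.31, SE 0.23, limma adjusted p = 0.0067). Wdr75, which links the processome to RNA polymerase I transcription, was at 8.73 and 10.72 RPKM in AML cells, against 3.01, 4.27 and 3.88 RPKM in normal cells (log2 fold change 1.19, SE 0.23, adjusted p = 0.011). Rrp12, a factor of subunit maturation and export, was 3.52-fold higher, and Nob1, the endonuclease that makes the mature end of 18S ribosomal RNA, was 2.33-fold higher. The groups did not overlap for these 4 genes.

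The 5 small subunit genes that were not called were Wdr43, Utp20, Tsr1, Bysl and Utp14a. Wdr43 was at 8.62 ± 1.1 RPKM in AML cells (SD, n = 2) and 5 ± 1.72 RPKM in normal cells (SD, n = 3), with limma adjusted p = 0.1. Wdr43 and Utp20 are, like Utp14a, proteins of the processome, while Tsr1 and Bysl act late in small subunit maturation. Utp14a had the lowest change of the group, at 14.8 and 24 RPKM in AML cells, against 17.8, 23.5 and 32.5 RPKM in normal cells (log2 fold change -0.32, SE 0.33, adjusted p = 0.48). Bysl, bystin, was at 3.2 and 2.1 RPKM in AML cells, against 3, 2.5 and 3.7 RPKM in normal cells, and it overlaps the cyclin gene Ccnd3 on the opposite strand. Utp20 and Tsr1 stayed under 2.5 RPKM in every library, with AML library 1 the highest of 5 for both. Groups overlapped for Utp20, Tsr1, Bysl and Utp14a.

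Among the nucleolar chaperones and scaffolds 1 of 4 was called higher, against 19.3% of all tested genes. It was Nolc1, a chaperone of snoRNPs. Nolc1 stood at 14.36 and 12.08 RPKM in AML cells, against 7.43, 7.26 and 5.32 RPKM in normal cells (log2 fold change 0.90, SE 0.24, limma adjusted p = 0.03). Npm3, a histone chaperone related to nucleophosmin, was at 14.7 and 8.47 RPKM in AML cells, against 4.68, 5.94 and 7.39 RPKM in normal cells (log2 fold change 0.82, SE 0.30, adjusted p = 0.082). Ncl, nucleolin, was at 50.21 and 32.77 RPKM in AML cells, against 21.86, 29.58 and 21.04 RPKM in normal cells (log2 fold change 0.74, SE 0.28, adjusted p = 0.089). Neither pair of groups overlapped, and AML library 1 was the higher for both.

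Npm1, nucleophosmin, a gene often mutated in human AML, was at 65.34 and 45.01 RPKM in AML cells, against 37.89, 56.64 and 37.58 RPKM in normal cells. The groups overlapped (log2 fold change 0.32, SE 0.30, limma adjusted p = 0.43). Npm1 is known to have many processed pseudogenes, among which reads could be split, so its level is uncertain. The RNA helicases Ddx21, which acts in polymerase I transcription and processing, and Ddx18 were also not called. Ddx21 was at 14.77 and 8.89 RPKM in AML cells, against 9.91, 10.31 and 4.9 RPKM in normal cells (adjusted p = 0.35). Ddx18 was at 3.3 and 1.3 RPKM in AML cells, against 2.7, 2.6 and 1.4 RPKM in normal cells (adjusted p = 0.98), with 1 library of each group low.

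Of the 3 metabolic enzymes, Srm rose and Cad and Odc1 were not called. Srm, spermidine synthase, stood at 9.04 and 7.8 RPKM in AML cells, against 3.48, 3.39 and 3.77 RPKM in normal cells, 2.37-fold higher (log2 fold change 1.05, SE 0.21, limma adjusted p = 0.011). Odc1, ornithine decarboxylase, which makes the putrescine that Srm uses and is a well known MYC target, was at 4 and 2.7 RPKM in AML cells, against 8, 9 and 3.5 RPKM in normal cells. Normal library 3 fell between the AML libraries. The log2 fold change of Odc1 was -0.78 (SE 0.38, adjusted p = 0.16), and without normal library 3 it was -1.14 and passed (adjusted p = 0.007). Cad, the trifunctional enzyme that begins pyrimidine synthesis, was at 2.68 and 1.72 RPKM in AML cells, against 1.45, 0.89 and 0.68 RPKM in normal cells (log2 fold change 0.68, SE 0.24, adjusted p = 0.076).

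Myc itself stood at 36.8 and 29.28 RPKM in AML cells, against 2.48, 2.98 and 3.56 RPKM in normal cells, 11-fold higher (limma adjusted p = 0.00039). Its lowest AML library was above its highest normal library, and it was called in all 5 fits that left out 1 library.

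**Figure D3:**
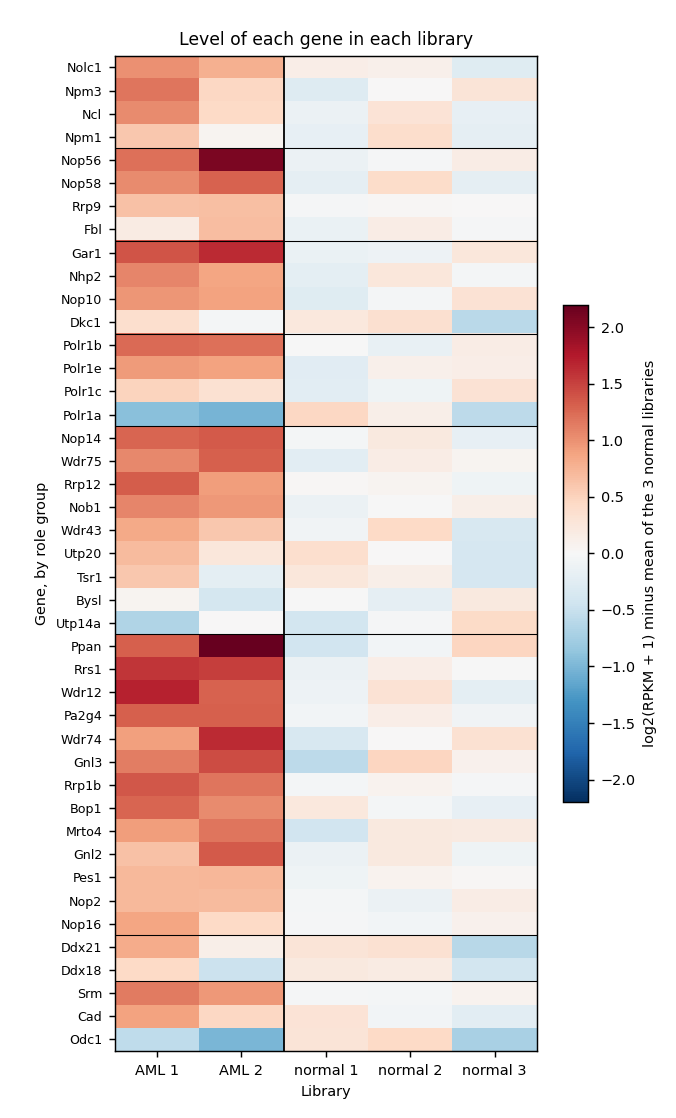
Log2(RPKM + 1) of each gene (rows, by role group) in each library (columns) minus the mean of the 3 normal libraries. Red is above and blue below that mean. Most rows are red in both AML libraries, with Polr1a and Odc1 blue in both, and Nop56 and Ppan darkest in AML library 2.

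The AML libraries differed in which genes they carried most. AML library 2 was higher than AML library 1 for 15 of the 43 genes and lower for 28, with a median log2 difference of -0.11, close to the -0.13 over all tested genes. Among normal libraries, library 3 lay below both others for 18 genes and above both for 15. The median log2 difference of normal library 3 from the mean of the other two normal libraries was -0.03 for the 43 genes and -0.06 for all tested genes. Normal library 3 also stood apart in erythroid transcripts, whose summed level was between 116.5 and 127.2 RPKM in AML cells, against 1531, 974.1 and 101.4 RPKM in normal libraries 1, 2 and 3. The median of the 43 genes was 0.96 without normal library 3.

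Other genes of the pathway, listed by role, had log2 fold changes above 0 for 99 of 117 tested, against 55.9% of all tested genes. Of 123 such genes 120 were in the table and 117 were tested, of which 40 were higher and 2 lower (34.2% higher, against 19.3% of all tested genes), with a median log2 fold change of 0.60. By list, 5 of 15 other polymerase I genes, 11 of 35 small subunit factors, 13 of 35 large subunit factors and 9 of 19 genes of the RNA exosome and RNase MRP rose. None of these 4 lists held a gene that fell in limma, also at an unadjusted p under 0.05. Polr2f, a subunit shared by all 3 nuclear polymerases, was 3.75-fold higher (log2 fold change 1.91, SE 0.38, limma adjusted p = 0.011). Mphosph10 of the processome was 3.15-fold, the helicase Ddx55 3.16-fold and the exosome subunit Exosc7 2.93-fold higher. Leaving out 1 library raised the highest adjusted p to 0.1 for Polr2f, 0.056 for Mphosph10, 0.19 for Ddx55 and 0.079 for Exosc7.

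Among 13 other tested polyamine and pyrimidine genes 2 rose and 2 fell, 15.4% in each direction, which is near the 19.3% higher and 11.8% lower of all tested genes. Paox, polyamine oxidase, stood at 3.62 and 4.9 RPKM in AML cells, against 1.43, 1.27 and 1.1 RPKM in normal cells (log2 fold change 1.21, SE 0.21, limma adjusted p = 0.0069). Smox, spermine oxidase, which like Paox breaks down polyamines, fell to 3.9 and 4.3 RPKM in AML cells, against 12, 10.6 and 15.2 RPKM in normal cells (log2 fold change -1.40, SE 0.24, adjusted p = 0.0063). Without 1 library the highest adjusted p was 0.076 for Paox and 0.057 for Smox. Tyms, thymidylate synthase, rose and Cmpk1, a pyrimidine nucleotide kinase, fell, and the other 9 tested genes of this list were not called.

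**Figure D4:**
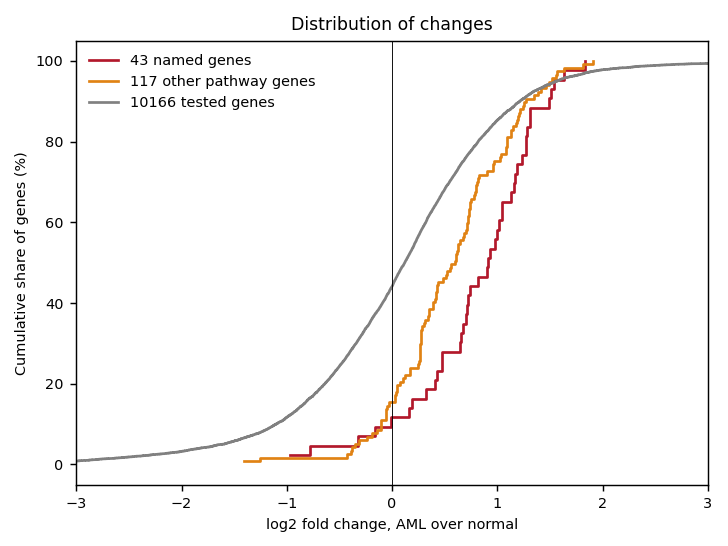
Cumulative share of genes (vertical axis, percent) at or below each log2 fold change (horizontal axis, AML over normal) for the 43 genes, 117 other pathway genes and all 10166 tested genes. The curves of the 43 genes and of the other pathway genes lie right of that of all tested genes below a log2 fold change of about 1, with medians of 0.91, 0.60 and 0.12.

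Markers of cell stage and of other cell types moved along with these genes, and their part in the result was not tested. In bulk RNA, fewer cells of a type and less RNA per cell cannot be told apart. As background for the marker counts, 19.3% of all tested genes were called higher and 11.8% lower. Of 7 primary granule genes of promyelocytes 5 rose and 1 fell. Their summed level was 10880 to 11830 RPKM in AML cells and 640.1 to 993.8 RPKM in normal cells. Elane alone gave 5506.98 and 7579.81 RPKM of the AML sums. The gene that fell, Ctsc, was at 8 and 9.3 RPKM in AML cells, against 78.2, 63.1 and 79.6 RPKM in normal cells. Of 10 late neutrophil genes 8 fell, with sums of 45850 to 61700 RPKM in AML cells and 56960 to 70850 RPKM in normal cells. Ngp and Camp, which were not called, made up most of these sums in every library, so the sums hide the fall of the others. Monocyte and macrophage markers fell for 7 of 10, with sums of 850.4 to 996.3 RPKM in AML cells and 1003 to 1476 RPKM in normal cells. Nearly all of the AML sums was Ly6c2, which was not called. It stood at 953.49 and 804.81 RPKM in AML cells, against 552.68, 618.26 and 460.88 RPKM in normal cells. The sums therefore understate the fall of the other markers.

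The counts below have the same background, 19.3% of all tested genes called higher and 11.8% lower. Among 4 tested progenitor markers Kit, Flt3 and Myb rose and Cd34 fell. The whole list summed to 266.4 to 334.2 RPKM in AML cells and 20.46 to 37.41 RPKM in normal cells. Cd34, Hoxa9, Meis1 and Mecom were listed at 0 in both AML libraries, but were low in normal cells too. In normal libraries 1, 2 and 3 Cd34 was at 1, 1.4 and 0.3 RPKM and Meis1 at 0.5, 0.5 and 0.4 RPKM. Hoxa9 was at 0.08, 0.18 and 0.07 RPKM there, and Mecom at 0. Of 13 cell cycle genes 7 rose, 5 of them Mcm subunits of the replicative helicase, and Ccna2 and Ccnb1 fell, with sums of 668.4 to 990.1 RPKM in AML cells and 414.7 to 588.9 RPKM in normal cells. T and NK cell markers gave 5 higher (Cd3e, Cd3g, Thy1, Gzma and Nkg7) and 1 lower (Cd3d) of 7 tested. Their sums were 578.8 to 623.8 RPKM in AML cells and 59.67 to 67.14 RPKM in normal cells. Cd3e and Thy1 passed the filter only with the AML libraries. Cd3e, a CD3 chain of the T cell receptor complex, stood at 232.97 and 205.32 RPKM in AML cells, against 0.19, 0.2 and 0.56 RPKM in normal cells. Cd2, Lck and Cd4 of the same list stayed under 1 RPKM in every library. Cd8a was listed at 0 in both AML libraries, against 0.1, 0 and 0.3 RPKM in normal cells. B cell markers gave 1 lower, Vpreb3, of 4 tested, with sums of 11.49 to 14.57 RPKM in AML cells and 13.99 to 21.79 RPKM in normal cells. Rag1 was listed at 0 in both AML libraries, against 0.3, 0.5 and 0.2 RPKM in normal cells. Vpreb3, like Cd34 and the monocyte marker Cx3cr1, passed the filter only with the normal libraries. Of 6 tested erythroid markers none was called by limma, and none had an unadjusted p under 0.05.

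Change was related to transcript length across the whole table. The median log2 fold change was 0.48 in the shortest sixth of 9852 annotated genes (171 to 1815 bases of merged exon) and -0.17 in the longest sixth (6537 to 31152 bases). Spearman's rho between length and log2 fold change was -0.23 over those genes and -0.15 over the 43 genes, points that share the same 5 libraries. The 43 genes had a median length of 2788 bases, against 3620 for all. In each sixth the median of the 43 genes there lay above that of all genes, at 0.98 for 7 genes in the shortest and 0.68 for 5 in the longest. With the length trend removed, an alternative chosen after seeing the data, 48.4% of all calls were higher. It called 23 of the 43 higher, 20 of them among the 26, against 15.8% of all tested genes. In the same fit 1 of the 43 was lower, Polr1a (log2 fold change -0.87, limma adjusted p = 0.037). Cad, Ncl and Utp20 were called higher there (adjusted p = 0.014, 0.028 and 0.03), and Gnl2, Nhp2, Nop10, Nop2, Pes1 and Rrp9 were not.

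**Figure D5:**
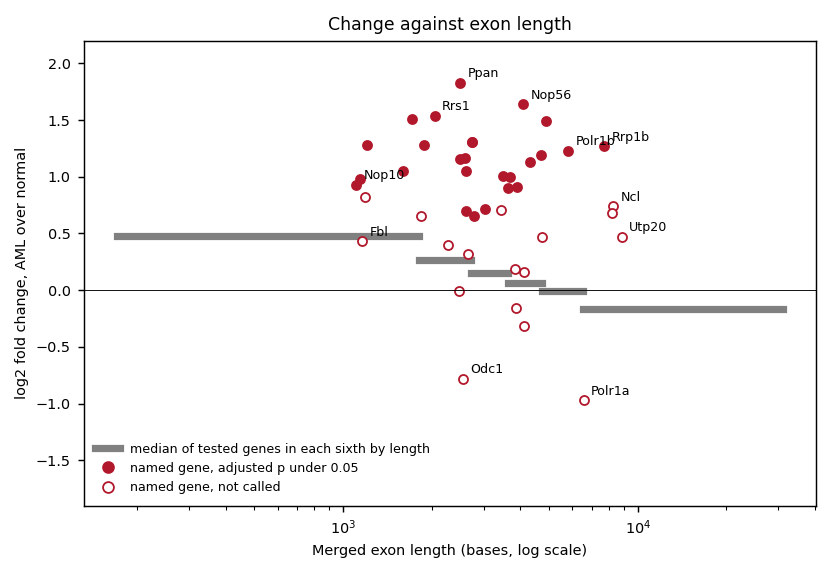
Log2 fold change (vertical axis, AML over normal) against merged exon length (horizontal log axis, bases) for the 43 genes, filled where adjusted p was under 0.05. Grey bars are medians of all annotated tested genes in sixths by length, from 0.48 in the shortest to -0.17 in the longest. Most of the 43 genes lie above the bar of their sixth.

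Several of the 43 genes also have snoRNA genes within their span. Many snoRNAs are known to be spliced out of introns of host genes, and they guide the enzymes described above. Whether the snoRNA genes counted here lie in introns and on the strand of the host was not checked. GENCODE M1 places 23 snoRNA genes within 9 of the 43, with 4 in Nop56, 4 in Nop58, 3 each in Ncl, Wdr43 and Gnl3, 2 each in Tsr1 and Ppan, and 1 each in Dkc1 and Odc1. Of these 9 hosts 4 were called higher, namely Nop56, Nop58, Ppan and Gnl3, against 60.5% of the 43 genes and 19.3% of all tested genes.

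The precision of the deposited values was uneven. For 7 of the 43 genes (Dkc1, Polr1a, Utp14a, Bysl, Tsr1, Ddx18 and Odc1) values were deposited with 1 decimal, and none of these was called. The other 36 had 2 decimals, all had a log2 fold change above 0, and 26 were called. Over all tested genes 11.9% of the 4749 with 1 decimal and 94.5% of the 5417 with 2 decimals had a log2 fold change above 0, and 0 and 1959 of them were called higher, so the number of decimals went with direction throughout the table. With every value rounded to 1 decimal 26 of the 43 genes were still called higher.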

How the data were processed

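Total RNA of sorted cells became libraries with Illumina's TruSeq RNA kit, as the labels' protocols say. The authors deposited 1 table of 34240 features with a column for each of 5 libraries, matched to samples by title. The authors' deposited values were taken to be RPKM, reads divided by exon length and library size, since neither labels nor header give a unit. Column totals differ between libraries, and values multiplied by exon length in kb sum to between 1052562 and 1118076 in each library. Per the submitters' processing notes, mm9 was the build. How reads were aligned, counted and filtered is not given here by any source used.

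The 10166 genes that reached 1 RPKM in 2 or more libraries were compared as log2(RPKM + 1) with limma 3.58.1 in R 4.3.3, with a two-sided moderated test (eBayes, trend and robust options on), Benjamini-Hochberg adjustment over all tested genes and a threshold of 0.05. Fold is the ratio of mean RPKM, and SE comes from limma. Gene models came from GENCODE M1 (mm9) and promoters from RefSeq (GRCm38.p6), matched by symbol for 36 of 43 genes. Alternatives changed scaling, filter, pseudocount, variance model and decimals, left out each library, or removed a length trend.

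The genes, the other pathway and marker lists, and the tests were chosen with earlier results of these data known. Values in every library are given, within each role group, for the 2 largest and the smallest log2 fold changes, and for others chosen after their values were seen. Of other pathway lists the called genes with the largest rise and fall are named. The labels give no batch or date.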

Additional observations from a re-analysis of the deposited data

How the results depend on the processing

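Under all alternatives the median of the 43 genes stayed above 0. It was 0.64 with upper quartile scaling, 0.78 with median ratio scaling, 0.82 with quantile normalization, 0.78 with the exon length trend removed, 1.0 with a filter at 5 RPKM (33 genes tested) and 1.03 with a pseudocount of 0.1. The number of the 43 called higher, 26, fell to 14 with upper quartile scaling, where 11.1% of all tested genes were called higher. It was 18 with no filter on low values, where 10.2% of the 17466 genes tested were called higher. Without 1 library it ranged from 4 to 28, the number called lower from 0 to 2, and the number of all genes called from 674 to 4899, against 3155. One gene, Polr1a, was lower (1 of 43) with upper quartile scaling, median ratio scaling, quantile normalization and the length trend removed. Signs turned for genes that were not called: Dkc1 was -0.10 with upper quartile scaling, Fbl -0.06 with the length trend removed, and without 1 library Bysl ranged from -0.38 to 0.06, Ddx18 from -0.46 to 0.44, Dkc1 from -0.13 to 0.37, Tsr1 from -0.21 to 0.59 and Utp14a from -0.66 to 0.01. Calls did not change for any of the 43 without the variance trend, with a pseudocount of 0.1 or with 1 decimal. Leaving out a library reduces the residual degrees of freedom. Other causes of these changes were not tested. No paired analysis was possible because the replicate numbers name libraries in order of accession and the labels pair none. The 2 AML libraries limit precision, and the depth of every library is uncertain.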
